A study of Mus musculus with 42 samples.

Results

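In caudal epiblast-like cells (CEpiLCs), 678 genomic regions carried peaks of SOX2, β-catenin and LEF1 together, out of 139863 regions with a peak of any of the 3 factors. They were chosen from the WT cells treated with the WNT agonist CHIR99021 (CHIR), for which 3 peak lists per factor were deposited. The 20000 best peaks of each of these 9 lists were merged where they overlapped by at least 1 bp, and a merged region was a member if at least 2 of the 3 lists of SOX2, of β-catenin and of LEF1 each had a peak in it. The WT calls therefore describe how the members were found and are not a result. What did not enter the choice was the calling of the same regions in the 21 lists from cells lacking the Cdx genes, from cells lacking T, and from WT cells without CHIR, together with sequence, position and summit spacing.

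β-catenin does not bind DNA by itself. On WNT signalling it enters the nucleus and joins TCF/LEF proteins, of which LEF1 is one, at WNT-responsive enhancers. SOX2 is an HMG-box factor of pluripotent and neural progenitors, while CDX1, CDX2 and CDX4 are homeodomain proteins of the posterior epiblast that act on Hox genes, and T (Brachyury) is the T-box factor of the primitive streak.

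All cells were HM1 (129) mouse embryonic stem cell derivatives, differentiated in FGF with the WNT secretion inhibitor LGK974 and collected on day 3, at 72 h. CHIR was present for the last day except in the group called noCHIR here, whose treatment label names FGF without CHIR and in which only SOX2 was measured. The groups were wild-type (WT), Cdx1/2/4-/- (CdxKO) and T/Bra-/- (T/BraKO), with 3 independent biological replicates for each factor and group. The WT control was the parental XY HM1 TetON line and the mutants were separate lines, so that line and genotype cannot be told apart. Each library gave 1 list of narrow peaks called by MACS2 at its default q, and depth is unknown because the lists hold no read counts. The lists held between 26940 and 1008922 peaks and were compared at equal length. A region was called in a library if 1 of its 20000 best peaks, ranked by −log10 q, lay in it. The 3 WT SOX2 libraries were spread widely, calling 73.8, 82.7 and 98.7% of the members, with replicate 3 farthest from the others.

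The sequences that the results turn on come first. A region was named for the protein-coding gene with the nearest start site and numbered by its WT rank, and all bases are those of the reference genome GRCm38 (mm10), printed 5′ to 3′. Motifs were searched on both strands: CCATTGT or CCTTTGT for SOX, CTTTGAA or CTTTGAT for TCF/LEF, CAATAAA or CCATAAA, and also TAATAAA or TCATAAA, for CDX, and AGGTGTGA for T-box. A stretch that matched more than 1 class was counted for each. The first 3 windows are centred on the SOX2 summit of members at Hox genes. These members had fewer or weaker β-catenin peaks in CdxKO than in WT cells. The TCF/LEF and CDX motifs are in capitals. They lie at chr11:96316409-96316609 (plus strand), chr6:52190797-52190997 (plus strand) and chr6:52199951-52200151 (plus strand).
Hoxb4 site 1: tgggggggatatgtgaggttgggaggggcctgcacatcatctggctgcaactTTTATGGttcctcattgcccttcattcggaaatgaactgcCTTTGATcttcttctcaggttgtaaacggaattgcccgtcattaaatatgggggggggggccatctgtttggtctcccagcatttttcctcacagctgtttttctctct
Hoxa4 site 1: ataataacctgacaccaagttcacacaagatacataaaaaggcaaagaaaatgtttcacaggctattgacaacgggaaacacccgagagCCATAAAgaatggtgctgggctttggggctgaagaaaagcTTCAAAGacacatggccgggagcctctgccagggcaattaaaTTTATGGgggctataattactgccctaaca
Hoxa5 site 1: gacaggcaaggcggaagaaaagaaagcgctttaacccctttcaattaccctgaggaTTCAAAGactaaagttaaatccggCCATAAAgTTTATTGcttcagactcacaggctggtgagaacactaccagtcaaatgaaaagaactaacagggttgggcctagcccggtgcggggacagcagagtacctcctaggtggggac
Each of the 3 windows of 201 bp held 1 TCF/LEF motif, and none held the SOX motif. Hoxb4 site 1 had 1 CDX motif, and the other two had 2 each.

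The next pair, at chr2:70472024-70472224 (plus strand) and chr5:147304827-147305027 (plus strand), is shown because both members were called in all 30 lists, and the capitals mark SOX and TCF/LEF motifs. Gtf3a site 1, at chr5:146920144-146920344 (plus strand), is shown because, of the members called for SOX2 in 3 of 3 WT lists and 0 of 3 noCHIR lists, it had the best WT rank, with its SOX motifs in capitals.
Sp5 site 3: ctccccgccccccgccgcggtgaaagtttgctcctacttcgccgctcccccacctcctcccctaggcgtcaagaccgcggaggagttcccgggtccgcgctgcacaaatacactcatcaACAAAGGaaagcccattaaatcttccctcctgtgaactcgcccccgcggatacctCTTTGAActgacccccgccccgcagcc
Cdx2 site 1: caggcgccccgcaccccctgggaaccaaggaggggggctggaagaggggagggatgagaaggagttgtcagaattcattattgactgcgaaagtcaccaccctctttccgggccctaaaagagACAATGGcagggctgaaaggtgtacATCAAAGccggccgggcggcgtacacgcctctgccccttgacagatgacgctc
Gtf3a site 1: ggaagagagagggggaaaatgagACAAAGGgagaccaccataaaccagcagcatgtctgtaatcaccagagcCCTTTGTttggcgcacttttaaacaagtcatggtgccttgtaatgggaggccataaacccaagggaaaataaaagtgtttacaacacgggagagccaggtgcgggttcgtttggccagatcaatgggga
Sp5 site 3 and Cdx2 site 1 each held 1 SOX and 1 TCF/LEF motif and no CDX motif, whereas Gtf3a site 1 held 2 SOX motifs and, in lower case, 2 CDX motifs.

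Many members were copies of the same sequence at different places in the genome. Alignment of the 301 bp around the SOX2 summits with blastn put 116 members into 7 sequence groups of at least 5, in which each member matched another over at least 150 bp at 70% identity or more, and left 562 in no group. The 3 largest groups had 47, 20 and 19 members. One stretch of 3 members of each is shown, oriented and aligned to the first of the 3, with TCF/LEF motifs in capitals. Group 1 is shown by chr11:10867827-10867976 (plus strand), chr6:48866751-48866899 (minus strand) and chr4:11043595-11043743 (minus strand).
Vwc2 site 1: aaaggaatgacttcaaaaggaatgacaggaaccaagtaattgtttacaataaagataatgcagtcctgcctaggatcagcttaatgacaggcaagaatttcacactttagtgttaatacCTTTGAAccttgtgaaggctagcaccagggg
Tmem176a site 1: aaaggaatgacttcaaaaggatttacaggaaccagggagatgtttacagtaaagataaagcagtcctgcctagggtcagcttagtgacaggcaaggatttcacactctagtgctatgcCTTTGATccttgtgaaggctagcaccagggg
Ndufaf6 site 1: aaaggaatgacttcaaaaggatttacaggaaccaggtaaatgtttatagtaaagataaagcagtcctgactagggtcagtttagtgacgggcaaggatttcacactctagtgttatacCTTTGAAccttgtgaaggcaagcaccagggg
Of the 150 bases of Vwc2 site 1, 134 were identical in each of the other two. Group 2 is shown by chr4:145366498-145366647 (plus strand), chr13:5440536-5440669 (minus strand) and chr13:24955559-24955705 (minus strand).
Tnfrsf8 site 1: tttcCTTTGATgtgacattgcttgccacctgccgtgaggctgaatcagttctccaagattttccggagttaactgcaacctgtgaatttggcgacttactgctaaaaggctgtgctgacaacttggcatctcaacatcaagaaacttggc
Klf6 site 1: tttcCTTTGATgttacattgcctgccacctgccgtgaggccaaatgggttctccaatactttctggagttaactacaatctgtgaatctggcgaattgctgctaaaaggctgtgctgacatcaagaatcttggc
Gpld1 site 1: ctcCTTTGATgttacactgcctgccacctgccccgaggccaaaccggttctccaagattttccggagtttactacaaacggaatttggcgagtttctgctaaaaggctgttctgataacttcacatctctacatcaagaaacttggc
Here 119 and 126 of the 150 bases of Tnfrsf8 site 1 were identical. Group 3 is shown by chr12:63002609-63002758 (plus strand), chr11:70356137-70356298 (minus strand) and chr10:3164974-3165125 (minus strand), with 140 and 141 of 150 bases identical to Fscb site 1.
Fscb site 1: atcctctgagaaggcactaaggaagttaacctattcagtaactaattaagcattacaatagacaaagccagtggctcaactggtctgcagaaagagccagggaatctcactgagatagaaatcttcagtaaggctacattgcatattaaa
Alox15 site 1: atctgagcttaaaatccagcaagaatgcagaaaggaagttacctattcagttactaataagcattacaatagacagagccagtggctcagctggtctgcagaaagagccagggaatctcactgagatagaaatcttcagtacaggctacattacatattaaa
H60c site 1: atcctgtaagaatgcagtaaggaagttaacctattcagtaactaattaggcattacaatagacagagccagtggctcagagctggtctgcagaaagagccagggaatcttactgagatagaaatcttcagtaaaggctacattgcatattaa
No TCF/LEF motif lies in these group 3 stretches. The 101 bp around the β-catenin summits of the same 3 members, at chr12:63002908-63003008 (plus strand), chr11:70355932-70356032 (minus strand) and chr10:3164768-3164868 (minus strand), each hold 1, which reads TTCAAAG on the strand shown.
Fscb site 1 at the β-catenin summit: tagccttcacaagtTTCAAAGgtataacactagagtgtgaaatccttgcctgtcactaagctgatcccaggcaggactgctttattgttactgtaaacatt
Alox15 site 1 at the β-catenin summit: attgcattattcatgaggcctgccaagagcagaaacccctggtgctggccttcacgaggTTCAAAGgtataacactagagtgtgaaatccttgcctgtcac
H60c site 1 at the β-catenin summit: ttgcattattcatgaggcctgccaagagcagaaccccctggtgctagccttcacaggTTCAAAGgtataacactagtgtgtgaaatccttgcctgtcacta
A CDX motif in lower case also lies in the window of Fscb site 1, and 1 lies in the stretch of Vwc2 site 1. The members to print were chosen after their values were seen.

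The members were mostly distal. Of the 678, 353 were intergenic, 296 intronic, 15 in a UTR, 13 in a noncoding exon and 1 in a coding exon, and 74 (10.9%) lay within 1000 bp of a transcription start site. The median distance to the nearest protein-coding start site was 35120 bp, and 482 members lay within 100 kb of one. They belonged to 619 genes, 48 of which were nearest to more than 1 member, with at most 4 at a gene. Their median width was 985.5 bp, from 206 to 4048 bp.

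The peaks of the 3 factors coincided within the members. The median distance between summits was 24 bp for β-catenin and LEF1, 34 bp for SOX2 and β-catenin, and 43 bp for SOX2 and LEF1, and 532 members (78.5%) had their SOX2 and β-catenin summits within 100 bp. In 93 members these summits were more than 200 bp apart. The rule asked only that the peaks merge, so the spacing was not fixed by it, although summits in 1 narrow peak cannot lie far apart.

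SOX and TCF/LEF motifs were both more frequent at the members than beside them. Within 100 bp of the SOX2 summit, 317 members (46.8%, 95% Wilson interval 43.0 to 50.5%) held a TCF/LEF motif and 186 (27.4%, 24.2 to 30.9%) a SOX motif. The same windows moved by 1000 bp to either side held each of them in 7.30% of cases, and the windows at the summits of all 139863 regions in 14.4% and 10.5%. Centred on the β-catenin summit, TCF/LEF motifs were found in 57.7% and SOX motifs in 21.8% of the members. Both motifs were present near the SOX2 summit in 83 members, and neither was found anywhere in 92 regions. The CDX motif was found in 97 members (14.3%), near the 15.1% of all regions and below the 18.4% of the moved windows, and the T-box motif in 9 (1.33%) against 1.09% of all regions. A match is a description of the sequence and not evidence of binding, and intervals cover counting error only.

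Where the SOX2 and β-catenin summits were apart, the motifs parted with them. Among the 435 members with summits within 50 bp, 53.1% had a TCF/LEF motif at the SOX2 summit and 54.3% at the β-catenin summit. In the 93 members with summits over 200 bp apart, the TCF/LEF motif was found at 21.5% of SOX2 summits and 69.9% of β-catenin summits, and the SOX motif at 37.6% and 9.68%. In the 67 of these that belonged to no sequence group, the shares were 25.4% and 71.6% for TCF/LEF and 34.3% and 10.5% for SOX.

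The members also differed in motif shares from the regions most like them. The 1374 regions of SOX2 and β-catenin without any WT LEF1 call had a TCF/LEF motif at 15.1% of SOX2 summits, and a SOX motif at 30.7%. Promoters made up 19.3% of these regions, against 10.9% of the members. The 470 regions of β-catenin and LEF1 without any WT SOX2 call held the TCF/LEF motif at 81.3% of β-catenin summits and the SOX motif at 4.68%. Their promoter share, at 11.5%, was near that of the members. The members thus lay between both sets in their TCF/LEF share. Summit spacing was alike. SOX2 and β-catenin summits lay within 100 bp in 78.8% of the regions without LEF1 and 78.5% of the members. For β-catenin and LEF1 this held in 90.4% of the regions without SOX2 and 90.3% of the members.

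At most members β-catenin was called in all lists of both mutants, SOX2 in most, and LEF1 less often. In CdxKO cells β-catenin was called in 3 of 3 lists at 617 members (91.0%), against 48.4% of the 9687 regions with at least 2 WT β-catenin calls, and in T/BraKO cells at 634 (93.5%), against 56.5%. SOX2 was called in 3 of 3 lists at 531 members (78.3%) in CdxKO and 488 (72.0%) in T/BraKO cells, against 60.1% and 57.1% of the 5582 regions with at least 2 WT SOX2 calls. For LEF1 the members called in 3 of 3 lists were 375 (55.3%) in CdxKO and 247 (36.4%) in T/BraKO cells, against 36% and 20.5% of 1918 regions. Without CHIR, SOX2 was called in 3 of 3 lists at 351 members (51.8%), against 57.1%. In each mutant the members thus stood above this background for every factor, and for SOX2 without CHIR they stood below it. The background includes the members, and fewer of its regions were in 3 of 3 WT lists. For SOX2 these were 1953 of the 5582 regions, against 374 of the 678 members. For β-catenin they were 5216 of 9687 regions against 640 members, and for LEF1 644 of 1918 against 367. Shares without a call at equal WT calls are given below.

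Members without any call show the same order. β-catenin was called in 0 of 3 lists at 14 members (2.07%) in CdxKO and 5 (0.738%) in T/BraKO cells, against 16.9% and 14.2% of the background regions. For SOX2 the numbers were 36 (5.31%) in CdxKO cells against 12.6%, and 45 (6.64%) in T/BraKO cells against 11.5%. LEF1 had no call at 67 members (9.88%) in CdxKO cells against 25.5%, and at 130 (19.2%) in T/BraKO cells against 38.4%. SOX2 without CHIR again went the other way, with no call at 159 members (23.5%) against 17.6%. Part of the members without a call also had no peak in the full lists. These were 8 and 1 for β-catenin in CdxKO and T/BraKO cells, 9 and 12 for SOX2, 5 and 11 for LEF1, and 58 for SOX2 without CHIR.

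**Figure D1:**
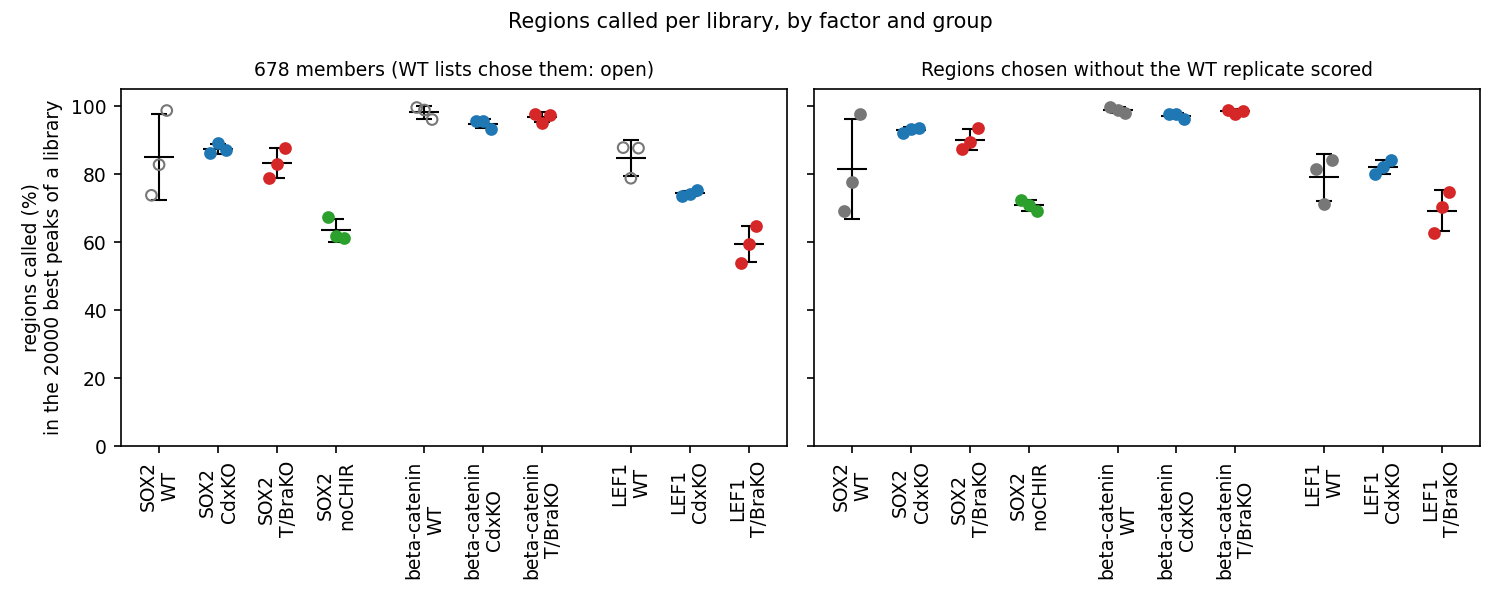
Share of regions called (%, y axis) in each library, for the 678 members (left) and for regions chosen anew without the WT replicate that is scored (right). Points are libraries, bars the mean and SD of 3 libraries, and open points the WT libraries that chose the members. On the left, SOX2 without CHIR sits between 61.2 and 67.4%, below every CdxKO and T/BraKO SOX2 library.

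SOX2 was called at fewer members in WT cells without CHIR than in either CHIR-treated mutant. The noCHIR libraries called 67.4, 61.8 and 61.2% of the members, the CdxKO libraries 86.1, 89.1 and 87.0%, and the T/BraKO libraries 78.8, 83.0 and 87.8%. Every noCHIR library lay below every mutant library. An exact permutation test of the 3 groups over all 280 partitions of the 9 libraries gave F = 42.9 with p = 0.0107. The members were chosen in CHIR-treated cells, and both mutants had CHIR while the noCHIR cells had none. A lower noCHIR share can therefore follow from the choice, and this p-value does not measure an effect of CHIR. CHIR and genotype cannot be told apart in this comparison, and WT cells with and without CHIR were compared as follows.

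WT libraries can be compared only on regions they did not choose. The rule was therefore applied without replicate 1, 2 or 3 of every factor, which gave 350, 380 and 254 regions. Both remaining WT lists of each factor had to have a peak, which is stricter than 2 of 3 lists. Each set was scored in the WT replicate left out. A mutant or noCHIR library was scored as its mean over the 3 sets. On such regions SOX2 was called at 81.5% ± 14.6 (SD, n = 3) with CHIR and 70.8% ± 1.66 without, a difference of 10.6 percentage points with an exact permutation p = 0.3. The WT SOX2 libraries, at 69.1, 77.6 and 97.6%, overlapped the noCHIR libraries at 72.4, 71.0 and 69.1%. Without WT replicate 3 the difference was 2.56 points, and without WT replicate 1 it was 16.81 points. In the mutants SOX2 was called at 92.9% ± 0.833 (CdxKO) and 90.1% ± 3.14 (T/BraKO), and the differences from WT had exact p = 0.4 for both. Their direction turned when all peaks were used, with WT higher by 1.11 and 2.38 points.

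For β-catenin the held-out shares were 98.8% ± 0.848 in WT, 97.2% ± 0.758 in CdxKO and 98.4% ± 0.690 in T/BraKO libraries (SD, n = 3 each). The exact p was 0.1 for CdxKO and 0.5 for T/BraKO. For LEF1 they were 79.0% ± 6.80, 82.1% ± 1.96 and 69.2% ± 6.09, with exact p = 0.7 for CdxKO and 0.2 for T/BraKO. After adjustment over these 7 tests every p was at least 0.56, and 3 against 3 libraries cannot go below 0.1, so that no loss or gain against WT was shown for the members as a whole.

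Between the mutants, LEF1 calling did not overlap. CdxKO libraries called LEF1 at 73.6, 74.0 and 75.2% of the members and T/BraKO libraries at 54.0, 59.4 and 64.8%. The difference of 14.9 points had the smallest p that 3 against 3 libraries allow (exact p = 0.1, 0.3 after adjustment over 3 tests). The corresponding differences were 4.23 points for SOX2 (87.4% ± 1.51 against 83.2% ± 4.50) and −1.92 points for β-catenin (94.8% ± 1.41 against 96.8% ± 1.54), both with exact p = 0.3 (SD, n = 3). Among the members in no sequence group the LEF1 difference was 8.72 points, and the SOX2 difference turned to −1.31 points. The LEF1 gap was not particular to the members. Regions of β-catenin and LEF1 without SOX2 were called for LEF1 at 58.4% ± 5.28 in CdxKO and 36.45% ± 6.06 in T/BraKO libraries (SD, n = 3). These libraries did not overlap either.

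At some members more than 1 factor had no call in a mutant. For the counts that join factors, the share over all regions is not given here, so they describe the members only. In CdxKO cells, 13 of the 14 members without a β-catenin call also had no LEF1 call, and 10 had no SOX2 call. Of the 36 members without a SOX2 call there, 19 had no LEF1 call, compared with 30 of the 531 members with SOX2 in 3 of 3 lists. In T/BraKO cells, all 5 members without a β-catenin call had no LEF1 call and 4 had no SOX2 call, and 29 of the 45 without a SOX2 call had no LEF1 call. Of the members without a LEF1 call, 31 of 67 in CdxKO and 106 of 130 in T/BraKO cells had β-catenin in 3 of 3 lists, and 30 and 56 had SOX2 in 3 of 3. The difference between the mutants in these shares was not tested. Among members called in 3 of 3 WT lists of a factor, those without a call in CdxKO cells were 8 of 374 for SOX2 (against 2.51% of all regions with 3 WT calls), 13 of 640 for β-catenin (against 7.29%) and 16 of 367 for LEF1 (against 5.9%). In T/BraKO cells they were 6 for SOX2 (against 1.89%), 5 for β-catenin (against 8.07%) and 45 for LEF1 (against 16.8%). For SOX2 these shares were 2.14 and 1.60%, near the background, while those of β-catenin (2.03 and 0.781%) and LEF1 (4.36 and 12.3%) were below it. All 3 factors were without a call at 9 members in CdxKO and 4 in T/BraKO cells. At the other end, 81 members were called in all 30 lists, and 293 had a peak in all 30 full lists.

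Set beside regions with only a pair of the factors, the members were called for β-catenin more often in the mutants. Across the 6 mutant β-catenin libraries the members were called at 95.8% ± 1.69 (SD, n = 6) and the regions of SOX2 and β-catenin without LEF1 at 74.5% ± 10.0. The difference of 21.3 points was seen in 6 of 6 libraries (exact sign-flip p = 0.0313, 0.0417 adjusted over 4 tests). Regions of β-catenin and LEF1 without SOX2 were called at 85.7% ± 3.99, 10.1 points below the members in 6 of 6 libraries (the same exact p). In the 6 mutant LEF1 libraries the members were called at 66.8% ± 8.86 and these regions at 47.4% ± 13.04, a difference of 19.4 points in 6 of 6 libraries (the same exact p). The sets already differed in the WT lists that chose them. Those lists called β-catenin at 98.1% of the members on average, against 85.4 and 94.1% of the other sets. LEF1 was called there at 84.7% of the members and 76.1% of the regions without SOX2. These p-values therefore do not measure how far calls were retained relative to WT. The members had also ranked higher in WT cells, with a median mean β-catenin rank of 608.7 against 7093.5 and 2275.4 in the other sets. They were wider as well, with a median of 985.5 bp against 638.5 and 648 bp, and a call needed only 1 bp of overlap. The part of rank and width in the differences was not tested.

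SOX2 was the exception. Over the 9 SOX2 libraries outside WT CHIR the members were called at 78.0% ± 11.5 and the regions of SOX2 and β-catenin without LEF1 at 81.3% ± 4.75, with the members higher in 4 of 9 libraries (difference −3.30 points, exact sign-flip p = 0.281). The noCHIR libraries called the members at 67.4, 61.8 and 61.2% and the regions without LEF1 at 79.6, 79.8 and 72.7%. All 3 were thus lower at the members, while 4 of the 6 mutant libraries were higher there.

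**Figure D2:**
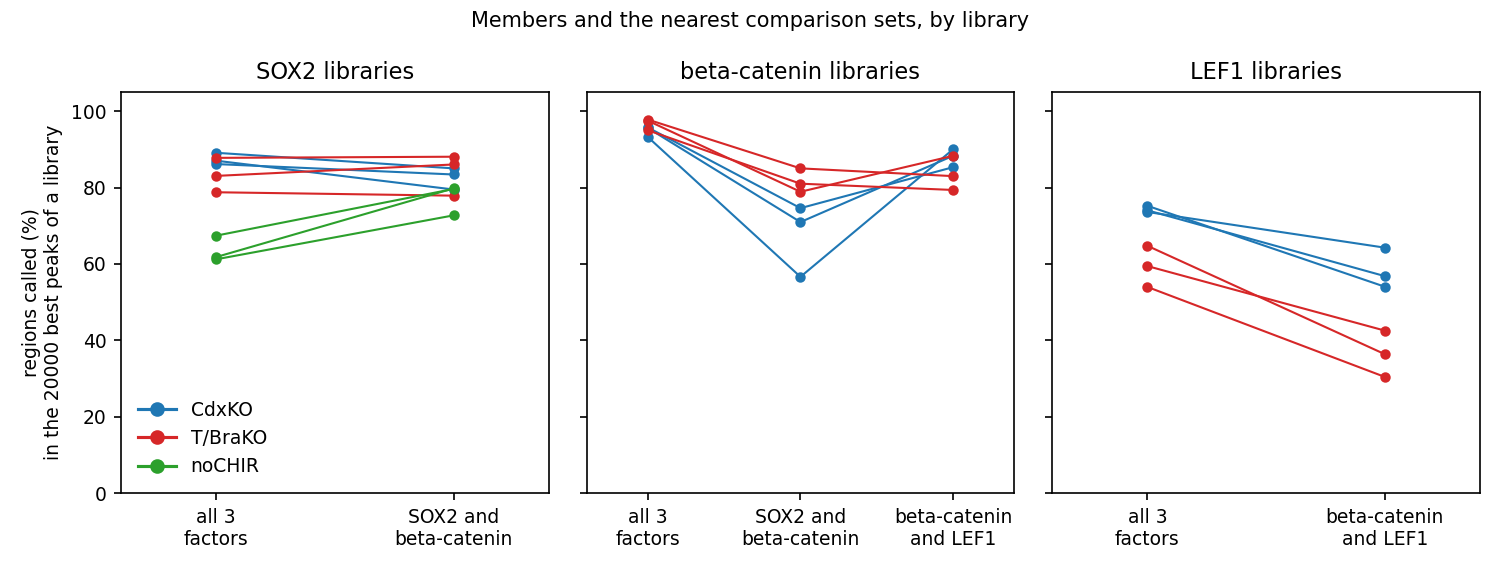
Share of regions called (%, y axis) in each mutant and noCHIR library, for the 678 members, the 1374 regions with SOX2 and β-catenin only and the 470 regions with β-catenin and LEF1 only (x axis). Each line is 1 library. All 6 β-catenin and all 6 LEF1 lines fall from the members to the other sets, and the 3 noCHIR SOX2 lines rise.

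Members without a SOX2 call in noCHIR cells differed in motif shares from those called in all noCHIR lists. The members were chosen in CHIR-treated cells, so a missing noCHIR call is not by itself a loss. Of the 159 members with SOX2 in 0 of 3 noCHIR lists, 61.6% (53.9 to 68.8%) held a TCF/LEF motif and 18.9% (13.6 to 25.7%) a SOX motif near the SOX2 summit, and 5.66% were promoters. Of the 351 with SOX2 in 3 of 3, 41.9% (36.8 to 47.1%) held the TCF/LEF motif and 35.6% (30.8 to 40.8%) the SOX motif, and 13.7% were promoters. The CDX motif was found in 25.8% (19.6 to 33.1%) and 9.69% (7.02 to 13.2%). Of the 159, SOX2 was called in 3 of 3 lists at 76 in CdxKO and at 54 in T/BraKO cells. No test was run on these shares, because members are not replicates of a condition. The same shares over all regions are not given here.

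Among the 374 members called for SOX2 in 3 of 3 WT lists, 42 had no noCHIR call (11.2%, against 5.73% of all such regions). The 3 best-ranked were Gtf3a site 1, Vwc2 site 2 and B4galt5 site 1. At B4galt5 site 1 (chr2:167378509-167379948, intergenic), near the gene of a galactosyltransferase, SOX2 fold enrichment over the local background was 14.4, 13.3 and 29.5 in WT libraries, 31.4, 21.02 and 15.6 in CdxKO and 17.7, 22.2 and 18.02 in T/BraKO libraries, and no noCHIR library listed a peak. At Gtf3a site 1, near the gene of the transcription factor of 5S ribosomal RNA genes, the SOX2 values were 61.5, 16.4 and 62.2 in WT and 5.64, 4.25 and 4.66 without CHIR. SOX2 there was 4.79, 6.31 and 5.51 in CdxKO and 27.6, 38.5 and 49.1 in T/BraKO cells. At this member both the CdxKO and the noCHIR libraries were thus below every WT and T/BraKO library, while at B4galt5 site 1 the noCHIR libraries were below the other 3 groups. The low noCHIR values follow from the choice of these members.

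A CDX motif was found more often at members without calls in CdxKO cells. Near the SOX2 summit it was present in 21 of the 36 members without a SOX2 call in CdxKO cells (58.3%, 42.2 to 72.9%) and in 60 of the 531 with SOX2 in 3 of 3 lists (11.3%, 8.88 to 14.3%). For β-catenin the shares were 9 of 14 (64.3%, 38.8 to 83.7%) and 73 of 617 (11.8%, 9.52 to 14.6%), and for LEF1 24 of 67 (35.8%, 25.4 to 47.8%) and 30 of 375 (8%, 5.66 to 11.2%). In T/BraKO cells the SOX2 shares were 13.3% (6.26 to 26.2%) of 45 and 14.3% (11.5 to 17.7%) of 488. For LEF1 the T/BraKO shares were 20.77% (14.68 to 28.53%) of 130 and 12.15% (8.642 to 16.81%) of 247. For β-catenin they were 40% (11.76 to 76.93%) of 5 and 14.04% (11.55 to 16.96%) of 634. The intervals of 0 and 3 lists were apart for all 3 factors in CdxKO cells and overlapped for all 3 in T/BraKO cells. Overlap does not show that the T/BraKO shares were equal, and their β-catenin class without calls held only 5 members. Members are not replicates, so whether the mutants differed in these shares was not tested. For SOX2 without CHIR the intervals were also apart, at 25.8% and 9.69%, so the difference was not particular to CdxKO cells. The share at all regions without CdxKO calls is not given here. TCF/LEF motifs were present in 61.1% (44.9 to 75.2%) and 45.8% (41.6 to 50.02%) of the SOX2 members without and with calls in CdxKO cells, where the intervals overlapped. With the window reduced to 50 bp on each side the SOX2 shares were 30.6 and 3.77%, and among members in no sequence group they were 60 and 10.9%. The comparison was added after the data were seen and is a description of the sequences, with no test.

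**Figure D3:**
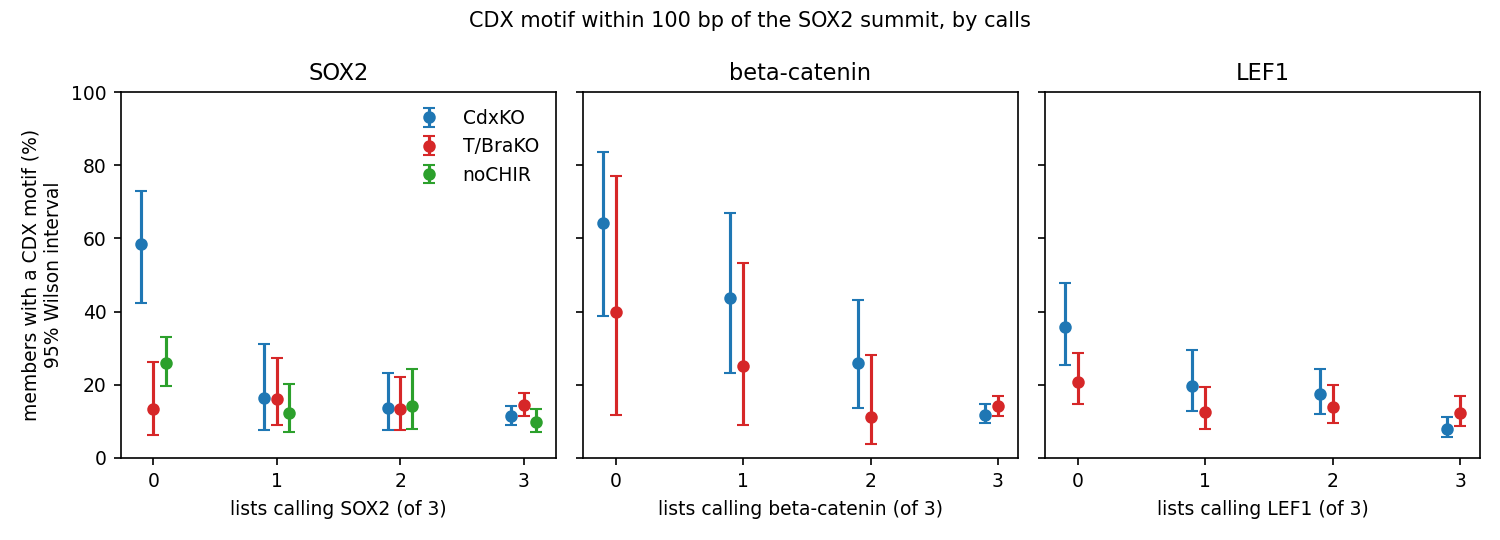
Share of members with a CDX motif within 100 bp of the SOX2 summit (%, y axis), by the number of the 3 lists of a group that called the factor (x axis), with 95% Wilson intervals that cover counting error only. In CdxKO cells (blue) the share is 58.3% at members without a SOX2 call and 11.3% at members called in 3 of 3 lists.

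The members called differently in the mutants were few. SOX2 was called in 3 of 3 T/BraKO and 0 of 3 CdxKO lists at 15 members (2.21%, against 1.33% of the background regions) and in the reverse at 20 (2.95%, against 1%). For β-catenin there were 12 (1.77%, against 4.44%) and 5 (0.738%, against 4.27%), and for LEF1 4 (0.590%, against 0.261%) and 38 (5.61%, against 5.37%). The β-catenin shares lay below the background, and that of LEF1 in CdxKO only was close to it.

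Some members had fewer or weaker peaks of all 3 factors in CdxKO cells. The members given here were named because a factor had no CdxKO call, so the low values of that factor follow from the choice. That factor was β-catenin at Mitf site 1, β-catenin and LEF1 at Slit3 site 2, and LEF1 at Acvr1b site 1. At Mitf site 1 (chr6:97864274-97865372, in an intron of the gene of a melanocyte regulator), β-catenin fold enrichment was 26.6, 31.3 and 58.5 in WT and 21.1, 13.6 and 29.7 in T/BraKO libraries. SOX2 was 8.91, 9.03 and 17.6 in WT and 9.84, 7.57 and 9.90 in T/BraKO libraries. No CdxKO library listed a peak of SOX2, β-catenin or LEF1 at this member, and no noCHIR library listed SOX2. LEF1 was 9.003, 17.1 and 7.84 in WT libraries and no peak, 13.5 and 3.10 in T/BraKO libraries. At Slit3 site 2 (chr11:35324678-35326067, intronic in the gene of an axon guidance ligand), β-catenin was 29.5, 38.9 and 54.1 in WT and 113, 74.8 and 119.1 in T/BraKO libraries, with no peak, 4.30 and 4.69 in CdxKO libraries. SOX2 was not listed in any CdxKO library there. Acvr1b site 1 (chr15:101182445-101183142), in an intron of an activin receptor gene, kept β-catenin in 3 of 3 CdxKO lists at 6.74, 7.32 and 14.5 against 72.4, 33.3 and 74.0 in WT and 56.3, 28.7 and 72.3 in T/BraKO libraries. The CdxKO values lay below all others although each was called.

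Other members were low in T/BraKO cells. Crot site 1 was named for having no T/BraKO call of SOX2, and Vmn2r2 site 1 for having none of LEF1. The low values of that factor therefore follow from the choice. At Crot site 1 (chr5:8999286-9000521), upstream of a peroxisomal carnitine acyltransferase gene, SOX2 was 14.2, 9.03 and 10.2 in WT and 6.89, 9.74 and 14.02 in CdxKO libraries, and 4.34 in 1 T/BraKO library with no peak in the other two. LEF1 was 8.25, 7.09 and 11.3 in WT, 9.62, 10.1 and 12.6 in CdxKO, and not listed in T/BraKO libraries. β-catenin was 34.5, 69.9 and 48.6 in WT, 46.6, 44.0 and 47.3 in CdxKO, and no peak, 11.9 and 9.05 in T/BraKO libraries. At this member the T/BraKO libraries were below the WT and CdxKO libraries for every factor. At Vmn2r2 site 1 (chr3:64121251-64122438), which belongs to sequence group 1, LEF1 was 23.6, 27.2 and 26.8 in WT, 48.2, 27.3 and 13.3 in CdxKO and 5.76, 4.07 and 5.58 in T/BraKO libraries, and β-catenin was 94.0, 145.1 and 100.1, 160.6, 95.4 and 88.1, and 17.7, 16.01 and 31.3.

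Calls of SOX2 and LEF1 in T/BraKO cells were fewest in the large sequence groups. The mutant lists did not enter the choice of members, but the groups were formed and compared after the data had been seen. In group 1, β-catenin was called at 47, 47 and 47 of 47 members in CdxKO and at 42, 40 and 44 in T/BraKO libraries, while its median rank went from 226, 272 and 215 to 3542, 4112 and 2543. SOX2 was called at 41, 42 and 46 members in CdxKO and 17, 23 and 28 in T/BraKO libraries. The WT libraries, which chose the members, called SOX2 at 21, 44 and 47. For SOX2 the WT and T/BraKO libraries thus overlapped. LEF1 was called at 39, 33 and 39 in CdxKO and 11, 15 and 10 in T/BraKO libraries. Every T/BraKO library lay below every CdxKO library for each factor. In the full lists a β-catenin peak was found at 46, 46 and 45 of these members in T/BraKO libraries.

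Groups 2 and 3 had the same order. In the 20 members of group 2, SOX2 was called at 16, 14 and 18 in CdxKO and 4, 5 and 11 in T/BraKO libraries, β-catenin at 20, 20 and 20 and at 18, 16 and 19, and LEF1 at 18, 14 and 16 and at 4, 3 and 7. In the 19 members of group 3, SOX2 was called at 18, 19 and 19 and at 11, 12 and 17, β-catenin at 19, 19 and 19 and at 18, 16 and 18, and LEF1 at 17, 19 and 17 and at 1, 5 and 2. The WT libraries called SOX2 at 8, 19 and 18 members of group 2 and at 13, 15 and 18 of group 3. They overlapped the T/BraKO libraries in both groups. The 562 members in no group were called for SOX2 at 479, 499 and 479 in CdxKO and 473, 494 and 512 in T/BraKO libraries, for β-catenin at 533, 533 and 517 and at 555, 543 and 550, and for LEF1 at 402, 412 and 418 and at 329, 361 and 395. In β-catenin the groups and the remaining members thus moved in opposite directions.

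The difference between groups 1 to 3 and the members in no group was taken in each library and compared between the mutants. It was larger in CdxKO than in T/BraKO cells by 44.6, 48.0 and 29.4 points for SOX2 in groups 1, 2 and 3, by 14.5, 15.5 and 12.6 points for β-catenin, and by 44.5, 47.9 and 70.2 points for LEF1. Each of these 9 values had the smallest p that 3 against 3 libraries allow (exact p = 0.1, and 0.1 after adjustment over 9), so none passed 0.05. Over the 86 members of the 3 groups the differences were 42, 14.3 and 50.97 points for SOX2, β-catenin and LEF1. With all peaks in place of the 20000 best they were 24.9, 7.20 and 29.8 points, and with 5000 peaks that of β-catenin was 40.4 points. Copies of 1 sequence are not independent, and no source consulted states how reads from near-identical copies were placed.

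**Figure D4:**
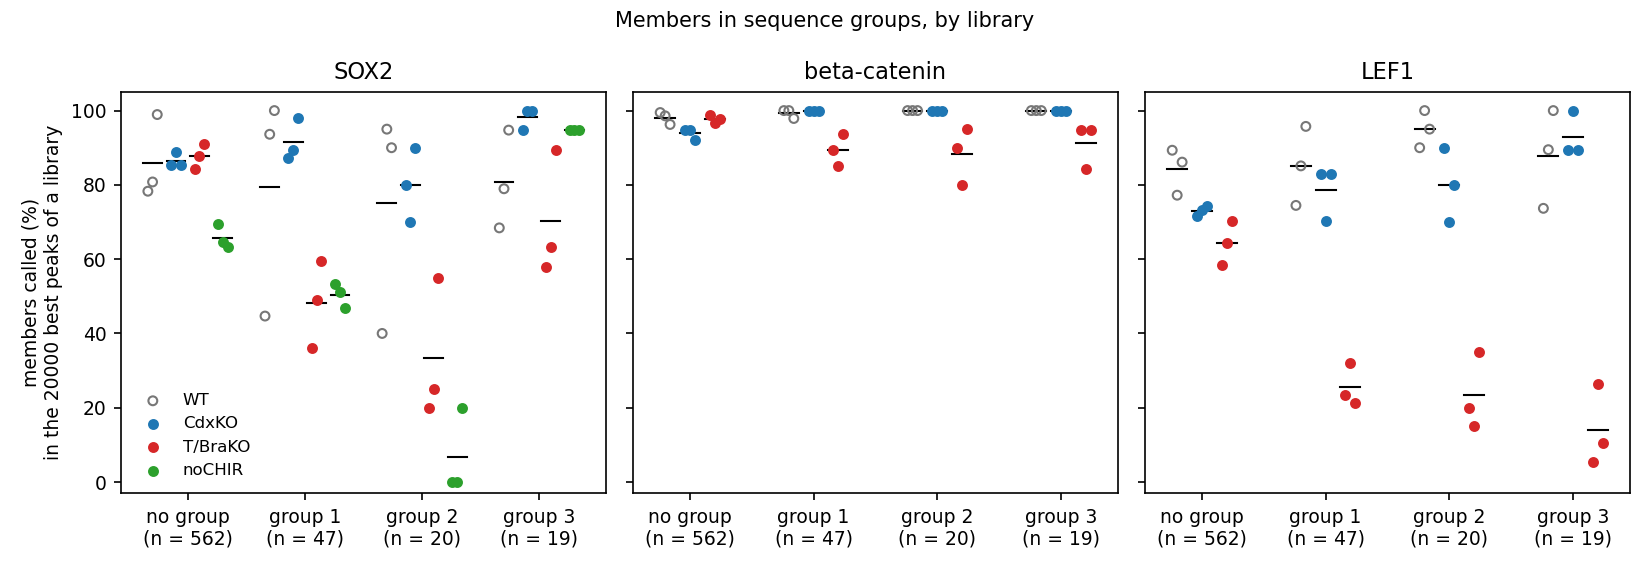
Share of members called (%, y axis) in each library, for members in no sequence group and in groups 1 to 3 (x axis). Points are libraries, bars the means of 3 libraries, and open points the WT libraries that chose the members. In groups 1 to 3 LEF1 falls to between 5.26 and 35.0% in T/BraKO libraries, against 58.5 to 70.3% in the members in no group.

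Without CHIR the 3 groups parted. Of the 20 members of group 2, SOX2 was called at 0, 0 and 4 in the noCHIR libraries, of the 47 of group 1 at 25, 24 and 22, and of the 19 of group 3 at 18, 18 and 18. The members in no group were called at 390, 363 and 355 of 562. Group 3 was thus at 94.7% in each library, above the 63.2 to 69.4% of the members in no group, and group 2 was below them.

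The position of the SOX2 summit set group 3 apart from group 1. In group 3 the SOX2 summit lay 277 bp from the β-catenin summit at the median (189 to 332 bp), and in group 1 it lay 21 bp away. Aligned at their β-catenin summits instead, all 47 members of group 1 and all 19 of group 3 fell into a single group of 68, of which 45 held a TCF/LEF motif there. The sequence under the β-catenin summit was thus shared, as the printed stretches show, and the SOX2 summit of group 3 lay in another part of the repeat. Groups 2 and 7 were joined in the same way into a group of 30, with SOX2 summits 21 and 604 bp away at the median. SOX2 was called in all 3 noCHIR libraries at all 5 members of group 7.

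Repeat sequence made up more than 50% of 43 of the 47 members of group 1, 7 of the 20 of group 2 and all 19 of group 3. Group 1 was spread over 17 chromosomes, group 2 over 14 and group 3 over 13. A TCF/LEF motif lay near the SOX2 summit of 26 members of group 1, 12 of group 2 and 0 of group 3. Group 4, with 9 members, had a T-box motif near the SOX2 summit in 5 members, and groups 1 to 3 had it there in 0. In T/BraKO libraries group 4 was called at 88.9 to 100% for SOX2, 100% for β-catenin and 55.6 to 77.8% for LEF1. A link between the motif and these calls was not tested.

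Of the gene lists, that of the WNT pathway had the most members, at 20. This is a raw count, since the lists differ in size and a gene can hold more than 1 member. The share of all regions near these genes is not given here. The lists were WNT targets, caudal epiblast, Hox, pluripotency, neural and mesendoderm genes, 172 in all, of which 32 were the nearest gene, within 100 kb, of 42 members. Among 20 members at 12 of 28 WNT target and pathway genes, β-catenin was called in 3 of 3 lists at 20 in both mutants, where the share over all members was 91.0% in CdxKO and 93.5% in T/BraKO cells. SOX2 was called in 3 of 3 lists at 15 in CdxKO, 18 in T/BraKO and 10 in noCHIR cells, and LEF1 at 14 in CdxKO and 11 in T/BraKO cells. Over all members the shares were 78.3, 72.0 and 51.8% for SOX2 and 55.3 and 36.4% for LEF1. These members were at the negative feedback genes Axin2, Nkd1, Znrf3 and Dkk1, at the receptor gene Fzd10, at the ligand genes Wnt5a, Wnt5b and Wnt8a, and at the transcription factor genes Lef1, Tcf7l1, Sp5 and Sp8.

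Sp5, a direct WNT target that encodes a zinc finger repressor, had 3 members. At Sp5 site 3 (chr2:70471624-70473424), at −2799 bp from the start, β-catenin fold enrichment was 43.4, 55.6 and 82.6 in WT, 62.4, 52.6 and 40.2 in CdxKO and 56.2, 45.5 and 74.8 in T/BraKO libraries. SOX2 there was 19.5, 7.97 and 20.4 in WT, 14.8, 28.6 and 20.1 in CdxKO, 11.5, 25.7 and 16.4 in T/BraKO and 19.6, 17.4 and 12.4 in noCHIR libraries. The groups overlapped for both factors. The pair of members at Axin2, which encodes a scaffold of the β-catenin destruction complex, lay next to each other in an intron, at chr11:108919913-108921828 and chr11:108921880-108923675, each within 1000 bp of an annotated start. Both had SOX2, β-catenin and LEF1 in 3 of 3 lists of each mutant.

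At the 7 members of caudal epiblast genes β-catenin was called in 3 of 3 lists in both mutants, as it was at 91.0 and 93.5% of all members. SOX2 was called in 3 of 3 lists at 5 in CdxKO, 6 in T/BraKO and 3 in noCHIR cells, and LEF1 at 3 in each mutant. Cdx2 site 1, in an intron of the gene of a caudal homeodomain factor 2343 bp from its start, was called in all 30 lists. Its β-catenin values were 60.6, 53.9 and 52.3 in WT, 68.1, 53.9 and 50.96 in CdxKO and 83.6, 58.8 and 48.8 in T/BraKO libraries, which overlapped. A member at Nkx1-2 (chr7:132599367-132602434), a marker of the caudal lateral epiblast, had SOX2 in 3 of 3 lists of both mutants and in 0 of 3 noCHIR lists. At Fgf8 (chr19:45734355-45735627), a signal of the caudal epiblast, SOX2 was called in 1 of 3 lists in each mutant and LEF1 in 2 of 3 CdxKO and 0 of 3 T/BraKO lists. Pluripotency genes had 4 members, at Klf4, Klf5, Pou5f1 and Tdgf1, with β-catenin in 3 of 3 lists of both mutants at each. SOX2 was called there in 3 of 3 lists at 2 in CdxKO, 4 in T/BraKO and 2 in noCHIR cells, and LEF1 at 1 in each mutant, with no LEF1 call at 1 in CdxKO and 2 in T/BraKO cells. A single neural gene, Gbx2, and a single mesendoderm gene, Nodal, had a member, and SOX2 at Nodal (chr10:61415600-61416384) was called in 3 of 3 lists of both mutants and 0 of 3 noCHIR lists.

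Hox genes, which encode the positional code of the trunk, had 3 members with β-catenin in fewer than 3 of 3 CdxKO lists, and the other lists had 0. Their 9 members were at 7 of 39 genes, among them Hoxa4, Hoxa5, Hoxb1, Hoxb2, Hoxb4 and Hoxd1. β-catenin was called in 3 of 3 lists at 6 in CdxKO and 9 in T/BraKO cells. LEF1 had no call at 4 in CdxKO and 2 in T/BraKO cells, and SOX2 had no call at 2 in CdxKO, 1 in T/BraKO and 5 in noCHIR cells, against 10 of 42 for all listed genes without CHIR. Over all members the shares without a call were 9.88 and 19.2% for LEF1 in CdxKO and T/BraKO cells, and 5.31, 6.64 and 23.5% for SOX2 in CdxKO, T/BraKO and noCHIR cells.

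Hoxb4 site 1 (chr11:96315639-96317021, intergenic), at −1758 bp from the start of its gene, had fewer or weaker peaks in CdxKO cells. β-catenin fold enrichment was 82.6, 42.7 and 96.0 in WT and 64.2, 43.5 and 81.1 in T/BraKO libraries, whereas 2 CdxKO libraries listed no peak and the third had 5.36. SOX2 was 7.06, 11.7 and 13.7 in WT, 7.34, 8.67 and 10.3 in T/BraKO, and 4.07 in 1 CdxKO library with no peak in the other two. LEF1 was 22.6, 7.40 and 18.5 in WT, 6.90, 5.94 and 5.80 in CdxKO and 13.8, 20.95 and 14.2 in T/BraKO libraries. The CdxKO libraries were below every WT and T/BraKO library for each factor, and SOX2 without CHIR was as low, with no peak, 4.05 and 4.02. Hoxb4 site 2 (chr11:96317418-96320535), within the gene, had β-catenin in 3 of 3 CdxKO lists but at 6.45, 5.16 and 7.31, against 52.2, 14.7 and 51.1 in WT and 38.3, 38.6 and 39.8 in T/BraKO libraries.

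Hoxa4 site 1, in an intron 856 bp from its start, had β-catenin at 47.9, 27.8 and 77.03 in WT and 49.6, 27.1 and 48.3 in T/BraKO libraries. In CdxKO cells 1 library listed a β-catenin peak there, at 5.93, and none listed LEF1. SOX2 was 12.8, 13.3 and 23.9 in WT, 10.8, 8.42 and 15.6 in T/BraKO and 6.71 in 1 CdxKO library, and was not listed without CHIR. At Hoxa5 site 1, β-catenin was 12.6, 11.4 and 28.9 in WT, 16.3, 10.4 and 17.8 in T/BraKO and 5.24, no peak and 5.89 in CdxKO libraries. For β-catenin the CdxKO libraries were thus below every WT and T/BraKO library at both members. LEF1 at Hoxa5 site 1 was lower in T/BraKO cells, with 4.07 in 1 library and no peak in the other two, than in CdxKO cells, with 6.60, 7.11 and 5.67.

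Hoxd1 site 1 had the same order with smaller differences, at 99.1, 74.6 and 88.01 in WT, 69.4, 54.8 and 62.8 in CdxKO and 98.2, 108.2 and 74.3 in T/BraKO libraries for β-catenin. Hoxb1 site 1 and Hoxb2 site 1 did not follow it. At Hoxb1 site 1 (chr11:96364913-96365957), at −183 bp from the start, β-catenin was 42.0, 35.2 and 50.7 in WT, 52.1, 49.6 and 30.2 in CdxKO and 40.5, 26.5 and 27.6 in T/BraKO libraries, and SOX2 was 43.8, 18.8 and 92.1 in WT and 20.6, 15.6 and 9.69 without CHIR. At Hoxb2 site 1 (chr11:96349694-96350552) the T/BraKO libraries were low instead, with SOX2 in 3 of 3 CdxKO and 0 of 3 T/BraKO lists and LEF1 likewise. Its LEF1 values were 11.5, 9.09 and 6.06 in WT, 6.87, 12.6 and 11.1 in CdxKO and 4.52, no peak and 4.48 in T/BraKO libraries. Members of a single Hox cluster thus differed in which mutant was low.

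**Figure D5:**
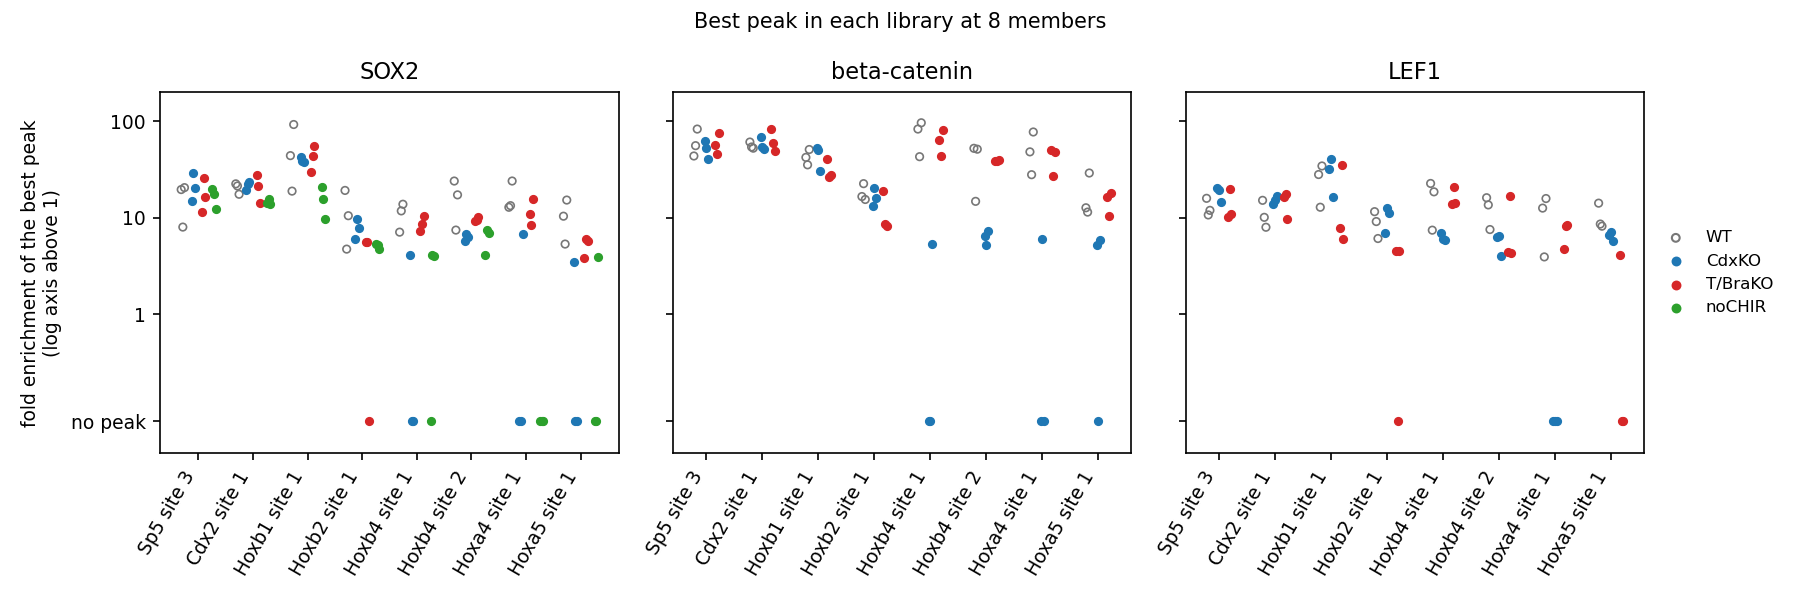
Fold enrichment of the best peak over the local background (y axis, log scale above 1, with "no peak" where a library listed none) in each library at 8 members (x axis), for SOX2, β-catenin and LEF1. Points are libraries, and open points the WT libraries that chose the members. At Hoxb4 site 1 and Hoxa4 site 1 the CdxKO β-catenin points are at most 5.93, below every WT and T/BraKO point.

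The 10 members with the best mean WT rank included those at Mapkap1, Foxb1, 2510009E07Rik, Fam227b, 5530401A14Rik, Lrmda, Ybx3, Osbpl10 and Lipc, and none of the 10 was at a listed gene. At Mapkap1 site 1 (chr2:34569860-34571603, intronic), in a gene of an mTORC2 subunit, β-catenin was 212.7, 167.3 and 245.9 in WT, 195.9, 199.7 and 236.0 in CdxKO and 112.4, 239.2 and 226.6 in T/BraKO libraries, and SOX2 was 26.4, 26.02 and 74.7 in WT and 65.1, 79.9 and 43.3 without CHIR. The groups overlapped for both factors.

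The choice of members had a border in each factor. SOX2 was called in 3 of 3 WT lists at 374 members and in 2 of 3 at 304, and 335 regions that met the rule for the other factors had 1 SOX2 call. For these 3 classes the mean share called was 95.6, 77.3 and 50.8% in CdxKO, 95.01, 68.6 and 44.4% in T/BraKO and 79.8, 43.4 and 22.4% in noCHIR libraries. For LEF1 the classes held 367, 311 and 605 regions, called at 86.1, 60.3 and 34.3% in CdxKO and 70.8, 45.9 and 27.7% in T/BraKO libraries. β-catenin had 640 members in 3 of 3 and 38 in 2 of 3 lists, and 16 regions with 1. The calls outside WT rose with the number of WT calls on both sides of the border.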

How the data were processed

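SOX2, β-catenin and LEF1 were measured by ChIP-seq in 30 libraries of 10 groups, 3 of each, and the 12 input samples were not analysed here. Per the labels and methods, the authors read single ends of 76 bp, aligned them to mm10 with BWA in the nf-core/chipseq pipeline and called narrow peaks in each library with MACS2, without pooling replicates. No source consulted states which input served which library or how reads from near-identical copies were placed. The deposited lists give a fold enrichment, that is the ratio of the summit to the local background, −log10 of the p-value and of the q-value (lowest 1.301), a score of 10 times −log10 q, and the summit offset. They hold no read counts, so depth is unknown.

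Peaks were ranked by −log10 q, ties by −log10 p and fold enrichment. The 20000 best of each list were used, with 5000, 10000, 50000 or all peaks, −log10 q of at least 5, an overlap of 10% and leaving out each replicate as alternatives. Groups were taken from the labels. Shares called were compared over libraries by exact two-sided permutation, sign-flip or F permutation tests with Benjamini-Hochberg adjustment, in scipy 1.17.1 and numpy 2.4.6 (Python 3.11.15, pandas 2.3.3), and the scripts were tested on simulated data. Sequence groups came from blastn 2.17.0 (e-value 1e-10) with single linkage in networkx 3.6.1, and figures from matplotlib 3.10.9. Sequence is from GRCm38 and gene positions from GENCODE basic annotation.

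Sites were named by rule: members within 100 kb of a listed gene, the 10 with the best mean WT rank, the 3 best-ranked called in 3 of 3 WT and 0 of 3 other lists, and the 3 best-ranked called in 3 of 3 lists of 1 mutant and 0 of 3 of the other. Some sites that the rule names are not reported here. The members and lists were chosen with earlier results of these data known. The labels do not say that a replicate number marks a shared day. Deviations of same-numbered libraries correlated above 0.1 in all 3 pairs only between the SOX2 libraries of CdxKO and T/BraKO cells (0.197 to 0.414) among the comparisons of groups.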

Additional observations from a re-analysis of the deposited data

Results flagged for a closer look

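Relative to WT libraries scored on regions they did not choose, SOX2 calling moved in opposite directions in CdxKO and noCHIR cells, by 11.5 and −10.6 percentage points, which differ by 22.1 points. The same held for T/BraKO and noCHIR cells, by 8.63 and −10.6 points, which differ by 19.3 points. LEF1 calling moved by 3.08 points in CdxKO and −9.76 points in T/BraKO cells, which differ by 12.8 points. These values share their WT libraries, and the differences between them were not tested here. None of the 5 differences from WT behind them passed its exact permutation test. With all peaks in place of the 20000 best, the SOX2 directions were no longer opposite, since WT was higher than CdxKO by 1.11, than T/BraKO by 2.38 and than noCHIR by 13.26 points.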

How the results depend on the processing

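Of 347 values under alternatives, 212 of those planned and 73 of those added after seeing the data kept their direction and side of the threshold or stayed within the limit for a count. The cause of the changes below was not tested.

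Differences that changed sign were these. Members against regions without LEF1 gave 0.296 points for SOX2 with 5000 peaks. Held-out WT minus CdxKO for SOX2 gave 1.11 points with all peaks, and WT minus T/BraKO gave 2.38 with all peaks and 0.336 at −log10 q of at least 5. CdxKO minus T/BraKO for SOX2 gave −0.706 points in members of at most 50% repeat and −1.31 in members of no sequence group.

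Members without a call numbered, with 5000, 50000 and all peaks, 108, 23 and 9 for SOX2 in CdxKO, 132, 24 and 12 in T/BraKO and 328, 97 and 58 in noCHIR cells. They numbered 34, 2 and 1 for β-catenin in T/BraKO and 113, 43 and 5 for LEF1 in CdxKO cells. With 5000 and all peaks they numbered 40 and 8 for β-catenin in CdxKO cells, and with all peaks 11 for LEF1 in T/BraKO cells. The rule gave 347 members with 5000 peaks, 211 when all 3 lists were required and 254 to 380 without a replicate.

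Within 50 bp the motif shares were 19.2% for SOX, 30.5% for TCF/LEF and 6.05% for CDX, and at β-catenin summits 21.8% for SOX and 57.7% for TCF/LEF. The CDX share of members without SOX2 calls in CdxKO cells was 30.6% within 50 bp and also with 5000 peaks. For members called in 3 of 3 lists it was 3.77% (SOX2), 4.05% (β-catenin) and 2.93% (LEF1) within 50 bp, and 11.9% (LEF1) with all peaks. For those without LEF1 calls it was 23.9% within 50 bp and 100% of 5 with all peaks.

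Leaving out each library in turn gave these ranges in points. Held-out SOX2 differences were −19.55 to −5.30 (CdxKO), −16.72 to −2.47 (T/BraKO) and 2.56 to 16.81 (noCHIR). For β-catenin they were 1.20 to 2.04 and −0.0327 to 0.809, with the negative value without WT replicate 1. For LEF1 they were −5.70 to 0.764, with the positive value without WT replicate 2, and 6.49 to 13.6. CdxKO minus T/BraKO ranged from 2.02 to 6.51 for SOX2, −2.80 to −1.11 for β-catenin and 12.19 to 17.58 for LEF1, and F from 26.75 to 64.49. Members against the other sets ranged from −4.66 to −1.47 for SOX2, 18.22 to 22.98 and 8.98 to 11.46 for β-catenin, and 17.64 to 21.44 for LEF1. With 5 libraries these last tests cannot go below an exact p of 0.0625.

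With the replicate number as a block the differences were the same, for example 14.9 points for LEF1 between the mutants, with exact p of 0.25 to 1, and no call changed. Without read counts, a region without a peak cannot be told from one whose peak was not detectable at the depth of that library.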
